A study of Homo sapiens with 6 samples.

Results

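The genes described here are the long noncoding snoRNA host genes measured in Mon-Mac-6, a human cell line that grew out of a monocytic leukaemia, with and without WD6305, which the series title describes as a PROTAC against METTL3. The rule that picks them uses names and no measured value: a symbol made of SNHG and digits only, plus GAS5, ZFAS1, DANCR and EPB41L4A-AS1. The rule found 31 genes among the 31853 rows of the table. The series holds 6 poly(A) RNA libraries, 3 from cells given DMSO and 3 from cells given WD6305 at 500 nM, both for 48 h. All 6 come from the same unmodified line, and DMSO is the only control, with no inactive analogue of the compound among the samples. No label says whether the replicates of a treatment were grown separately, so the p-values measure the spread between these libraries, which may be technical.

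Small nucleolar RNAs (snoRNAs) guide the chemical modification of ribosomal and spliceosomal RNA, and in human cells nearly all of them are cut from introns. Box C/D snoRNAs direct 2'-O-methylation, box H/ACA snoRNAs direct pseudouridylation, and small Cajal body RNAs do the same for spliceosomal RNA. Some hosts make a protein, often one used in translation, and others make a spliced RNA with little or no known coding role. The noncoding hosts are textbook examples of transcripts that begin with a pyrimidine tract, the 5' terminal oligopyrimidine (5' TOP) motif, and several are degraded by nonsense-mediated decay after the introns have been released. GAS5 was first described as a transcript that accumulates when growth arrests.

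The libraries held between 64525948 and 71155346 counts. METTL3 RNA, whose protein is the intended target, was at 70.5, 64.9 and 66.4 CPM (counts scaled to library size) with DMSO and 78.2, 76.0 and 79.7 CPM with WD6305, and RNA does not check the loss of a protein. All 12 myeloid markers were detected, with a summed level of 8180 to 8594 CPM in DMSO and 13624 to 15016 CPM in WD6305, and their part in the changes of the hosts was not tested. The T cell markers CD3D, CD3E, CD3G and CD2 have no row in the table, and summed B cell, T cell and erythroid or platelet markers stayed at or below 2.38 CPM in all libraries. DMSO 3 and WD6305 1 stood apart on the second principal component and had summed keratinocyte markers of 6.99 and 6.59 CPM, against 197 to 245 CPM in the other 4. Summed fibroblast markers were 42.5 CPM in WD6305 1 and 1.32 to 2.65 CPM elsewhere.

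Of the 31 genes, 27 passed the filter on low counts. SNHG28, SNHG31, SNHG18 and SNHG22 did not pass, and none of them had a count above 8 in any library. The 27 tested genes took between 0.127% and 0.14% of the counts of a library, and their summed level was 1368, 1265 and 1268 CPM with DMSO and 1319, 1375 and 1412 CPM with WD6305. The groups overlapped in that sum. Levels between genes were compared per transcript length, as FPKM. SNHG32 had the highest FPKM in all 6 libraries, 61.9, 48.5 and 54.1 with DMSO and 48.8, 66.0 and 63.8 with WD6305. SNHG1, the host of 8 RefSeq snoRNAs, followed with 28.4 ± 0.506 FPKM in DMSO and 27.7 ± 0.902 in WD6305 (mean ± SD, n = 3 libraries), although in WD6305 2 it was below SNHG6, SNHG29 and GAS5. GAS5, SNHG29 and SNHG6 had DMSO means of 24.3 ± 1.4, 22.8 ± 1.78 and 21.4 ± 1.13 FPKM, and the libraries of each overlapped with those of its neighbour in that order. These 5 genes held 57.7% to 63.6% of the summed FPKM of the hosts in a library. SNHG14, a very long transcript across the imprinted Prader-Willi and Angelman region with 83 RefSeq snoRNAs in its span, stood at 69.7 CPM in DMSO but only at 0.54 FPKM.

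**Figure D1:**
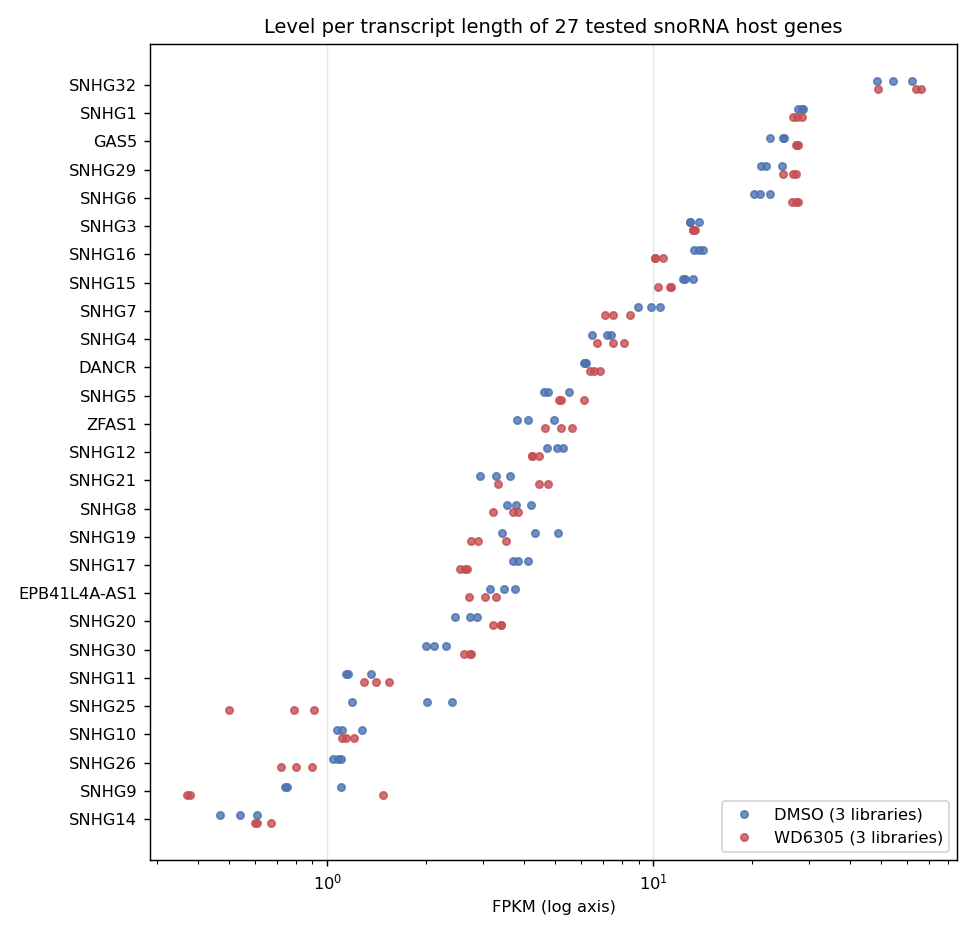
FPKM of the 27 tested snoRNA host genes on a log axis, with 1 point per library, blue for DMSO and red for WD6305. SNHG32 stood highest in every library, and the points of most genes lie close together for the 2 treatments.

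WD6305 moved these hosts in both directions and by small amounts. SNHG17, SNHG16, SNHG7 and SNHG26 fell, and SNHG6, SNHG20, GAS5 and SNHG29 rose, all by less than 1.5-fold. In all, 8 of 27 tested genes passed the threshold (edgeR quasi-likelihood test, Benjamini-Hochberg adjusted p under 0.05 over 18138 genes), which is 29.6%, beside 23.4% of all genes tested. By direction, 14.8% were higher, beside 12.2% of all genes, and 14.8% were lower, beside 11.2%. With upper-quartile scaling 3 rose and 5 fell (37.5% higher, against 50% with TMM scaling), as SNHG29 lost its call and SNHG15 gained one. The median log2 fold change of the 27 genes was 0.03, against 0.00 over all genes, and their median absolute log2 fold change was 0.23, against 0.26. The 3 libraries of one treatment did not overlap with those of the other in 14 of 27 (51.9%), 7 higher and 7 lower, beside 40.8% of all genes, 20.4% higher and 20.3% lower. No test set these shares against the background. In the 4 libraries without DMSO 3 and WD6305 1 6 members were called, 4 higher and 2 lower: SNHG20, SNHG26 and SNHG7 were lost (edgeR adjusted p = 0.0573, 0.182 and 0.117) and SNHG14 was gained. Fewer cells of a type and less RNA per cell cannot be told apart in bulk samples.

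**Figure D2:**
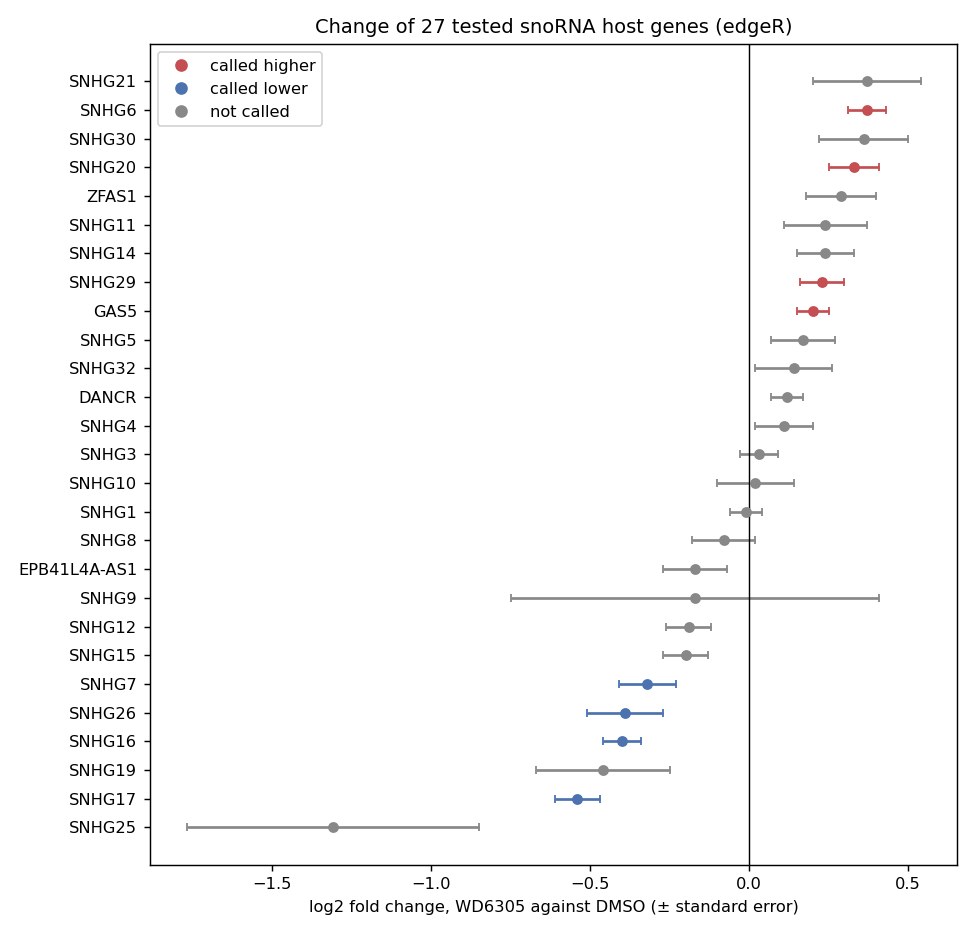
Log2 fold change of WD6305 against DMSO for the 27 tested hosts, with bars of 1 standard error from edgeR and colour showing the call. The 4 higher and 4 lower calls lie between -0.54 and 0.37, and SNHG25 at -1.31 has a wide bar and was not called.

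SNHG17 carries 4 box H/ACA snoRNAs of the SNORA71 family on chromosome 20 (chr20:38419638-38435387, minus strand, GRCh38). Its level was 52.6, 48.9 and 46.2 CPM in the DMSO libraries and 34.5, 34.0 and 33.1 CPM in the WD6305 libraries. All 3 WD6305 libraries were below all 3 DMSO libraries, and they differed little among themselves. SNHG17 fell by 0.54 on the log2 scale (SE 0.07, edgeR adjusted p = 0.000943), from 49.2 ± 3.22 to 33.9 ± 0.73 CPM. The exact permutation p of this and every other called member was 0.1 (two-sided), the smallest that 3 against 3 libraries can give.

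SNHG16 hosts 3 box C/D snoRNAs (SNORD1A, SNORD1B and SNORD1C) on chromosome 17 (chr17:76557727-76565357, plus strand). The DMSO libraries held 85.0, 86.6 and 79.6 CPM, and the WD6305 libraries 62.1, 65.6 and 62.6 CPM. The groups were separated by more than the range within either. SNHG16 fell by 0.40 (log2, SE 0.06, edgeR adjusted p = 0.00124).

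SNHG6, on chromosome 8 and host of the box C/D snoRNA SNORD87, moved the other way. It was at 60.9, 56.6 and 53.4 CPM with DMSO and at 71.8, 73.6 and 75.4 CPM with WD6305, so every treated library exceeded every control. Its mean went from 57.0 ± 3.79 to 73.6 ± 1.78 CPM (log2 fold change 0.37, SE 0.06, edgeR adjusted p = 0.00356). SNHG17, SNHG16 and SNHG6 were the 3 members called under all 18 alternative settings, with largest adjusted p of 0.00895, 0.0109 and 0.0232.

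GAS5 spans chr1:173858559-173868882 on the minus strand, and RefSeq places 10 SNORD genes and 1 SNORA gene inside it. It stood at 132, 119 and 129 CPM with DMSO and at 145, 143 and 148 CPM with WD6305. The lowest WD6305 library was above the highest DMSO library, and DMSO 2 was the lowest of all. GAS5 rose by 0.20 on the log2 scale (SE 0.05, edgeR adjusted p = 0.0201). Without DMSO 2 the edgeR adjusted p was 0.0665, and without WD6305 1, 2 or 3 it was 0.0619, 0.057 and 0.0878.

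SNHG29 lies on the plus strand of chromosome 17 (chr17:16438767-16473103) and hosts the box C/D snoRNAs SNORD49A, SNORD49B and SNORD65. The libraries held 236, 210 and 198 CPM with DMSO and 239, 260 and 256 CPM with WD6305. The groups did not overlap, but DMSO 1 came close to WD6305 1. SNHG29 rose by 0.23 (log2, SE 0.07, edgeR adjusted p = 0.0382). Its adjusted p exceeded the threshold without DMSO 2 (0.128), DMSO 3 (0.0748), WD6305 2 (0.131) or WD6305 3 (0.126).

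SNHG20 contains the small Cajal body RNA SCARNA16 and lies at chr17:77086716-77099902 on the plus strand. Its values were 18.7, 15.9 and 17.2 CPM with DMSO and 21, 22 and 22.3 CPM with WD6305, with no overlap. The log2 fold change was 0.33 (SE 0.08, edgeR adjusted p = 0.0191). The call was lost without DMSO 2 (0.0801), WD6305 2 (0.0654) or WD6305 3 (0.0772). SNHG20 shares 11154 bases with SEC14L1 on the same strand, so reads of these genes may not be separable.

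SNHG7 hosts the box H/ACA snoRNAs SNORA17A and SNORA17B at chr9:136721366-136728184 on the minus strand. DMSO libraries held 46.6, 50.8 and 53.1 CPM and WD6305 libraries 37.2, 39.0 and 44.5 CPM. The highest treated library was just under the lowest control. SNHG7 fell by 0.32 (log2, SE 0.09, edgeR adjusted p = 0.0276), and only leaving out DMSO 1 or WD6305 3 kept it past the threshold, the adjusted p being 0.0598 to 0.0914 without any one of the other 4 libraries.

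SNHG26, at chr7:22854126-22872952 on the plus strand, hosts the box C/D snoRNA SNORD93. It had 8.33, 8.62 and 8.58 CPM with DMSO and 5.79, 6.42 and 7.31 CPM with WD6305. The controls lay close together, while the treated libraries were spread out. Its fall of 0.39 (log2, SE 0.12, edgeR adjusted p = 0.0455) stayed past the threshold only when WD6305 3 was the library left out (0.0404), and was 0.0891 to 0.134 without any other.

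**Figure D3:**
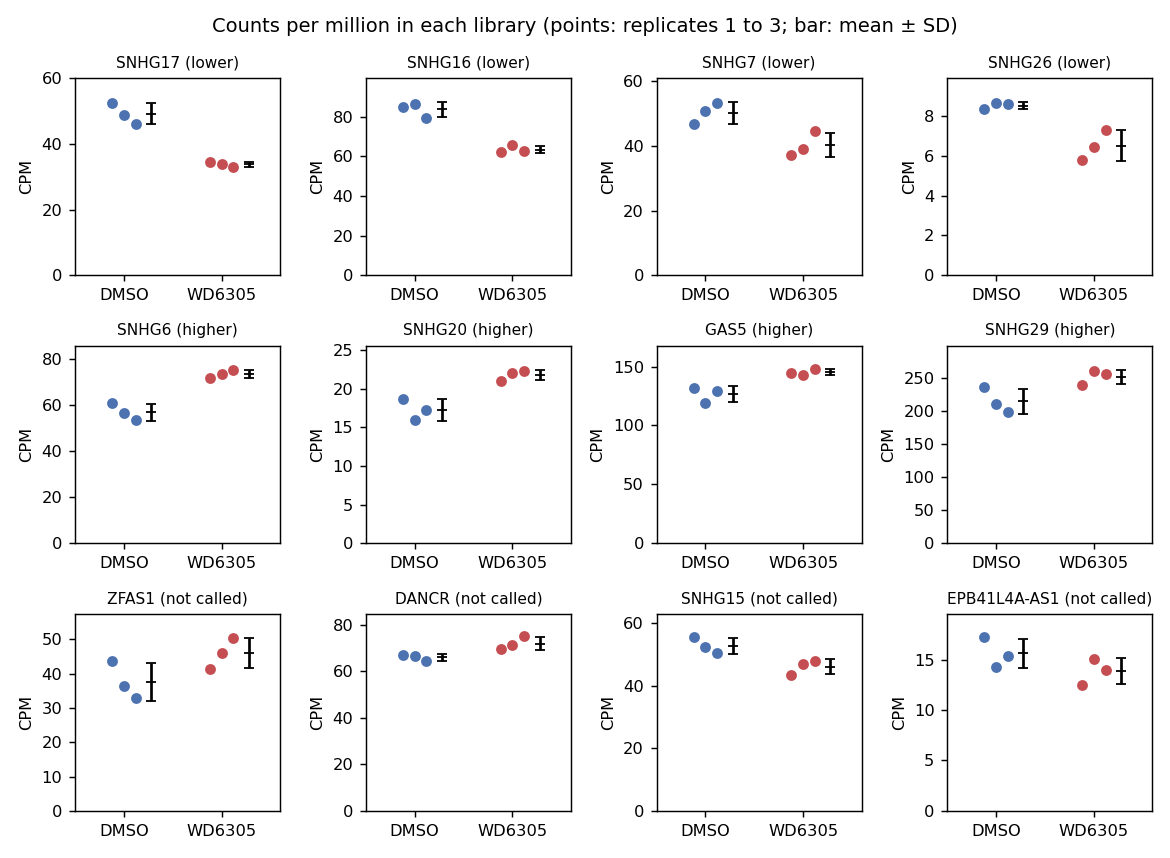
CPM in each library for the 8 called hosts and for ZFAS1, DANCR, SNHG15 and EPB41L4A-AS1, with the mean ± SD of 3 libraries beside the points and every axis starting at 0. SNHG17 and SNHG16 show the widest gaps between treatments relative to their spread, and ZFAS1 and EPB41L4A-AS1 overlap.

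The other hosts picked by name were not called. ZFAS1 (chr20:49278178-49298102, plus strand), a box C/D host beside ZNFX1, had 43.7, 36.3 and 32.8 CPM with DMSO and 41.5, 46.0 and 50.3 CPM with WD6305. The groups overlapped through DMSO 1, and the log2 fold change was 0.29 (SE 0.11, edgeR adjusted p = 0.105, exact permutation p = 0.2). Without DMSO 1 its adjusted p was 0.0293 in edgeR.

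DANCR (chr4:52712325-52723623, plus strand), named for its part in restraining differentiation, held 66.9, 66.8 and 64.5 CPM with DMSO and 69.6, 71.2 and 75.1 CPM with WD6305. All treated libraries were higher, by a log2 fold change of 0.12 (SE 0.05) that missed the threshold (edgeR adjusted p = 0.14). EPB41L4A-AS1 (chr5:112160526-112164818, plus strand) had 17.2, 14.3 and 15.4 CPM with DMSO and 12.5, 15.1 and 14.0 CPM with WD6305. The groups overlapped, at a log2 fold change of -0.17 (SE 0.10, edgeR adjusted p = 0.276).

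The remaining tested hosts had adjusted p between 0.0721 and 0.935 (edgeR). SNHG25 had the largest difference, -1.31 (log2, SE 0.46, edgeR adjusted p = 0.0721), where the DMSO libraries had counts of 52, 29 and 60 and the WD6305 libraries 12, 23 and 20. Every treated library was below every control. SNHG25 passed in limma on log2(FPKM + 1), at an adjusted p of 0.0298. SNHG15 (log2 fold change -0.20), SNHG12 (-0.19), SNHG14 (0.24) and SNHG30 (0.36) also separated the treatments without passing, with edgeR adjusted p of 0.0722, 0.0979, 0.0805 and 0.0958. SNHG14 passed without DMSO 3 (0.0153) and in the 4 libraries that leave out DMSO 3 and WD6305 1 (0.0292). SNHG15 passed in 7 of 18 alternatives, among them edgeR without DMSO 3 (adjusted p = 0.0472) and DESeq2 (adjusted p = 0.0319). SNHG14, SNHG25 and SNHG30 passed in 4 of 17, 3 of 17 and 2 of 18, and SNHG12 in 0 of 18. SNHG1, with one of the highest levels, had 122, 117 and 117 CPM in DMSO and 118, 113 and 122 CPM in WD6305, a log2 fold change of -0.01 (SE 0.05). An interval of 2 standard errors around it excludes a change as large as that of GAS5.

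Called hosts of box C/D snoRNAs went in both directions. Of 11 tested hosts with only box C/D snoRNAs in RefSeq, SNHG6 and SNHG29 rose, SNHG16 and SNHG26 fell, and the median log2 fold change was 0.17. Of 10 tested hosts with only box H/ACA snoRNAs, SNHG17 and SNHG7 fell, none rose in edgeR, DESeq2 or limma (1 had a higher level at an unadjusted p under 0.05), and the median was -0.12. SNHG20 was the only called one of 3 tested Cajal body RNA hosts, and GAS5 the only called one of 3 hosts with both main classes. Over all genes 12.2% were called higher and 11.2% lower. Differences between classes, or from these shares, were not tested.

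Several hosts share bases with other annotated genes, and the sources used here do not say whether counting used the strand. Of the 31 members, 24 overlap another row whose name is not that of a snoRNA, and 17 overlap one on the opposite strand. The only such row of SNHG19 and of SNHG25 is an unnamed one of 80 and 135 bases with the same counts as SNORD60 and SNORA50C, respectively. SNHG7 shares 3377 bases with DIPK1B on the other strand, which fell by 0.41 on the log2 scale (26.9 ± 1.81 and 20.3 ± 2.22 CPM, SE 0.10, edgeR adjusted p = 0.0166), so reads of these genes may not be separable. ZFAS1 shares 249 bases with ZNFX1, an RNA helicase gene, which fell by 0.23 (SE 0.07, edgeR adjusted p = 0.0355) while ZFAS1 had a positive estimate.

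On the same strand, SNHG3 lies within the span of RCC1, the nucleotide exchange factor for RAN, and all 4913 of its bases are shared. RCC1 held 289, 283 and 278 CPM with DMSO and 221, 238 and 220 CPM with WD6305, a fall of 0.33 (log2, SE 0.05, edgeR adjusted p = 0.00141), and SNHG3 had a log2 fold change of 0.03 (SE 0.06). SNHG4 lies within MATR3, a nuclear matrix RNA-binding protein gene, and shares 9143 bases. MATR3 held 77.2, 68 and 114 CPM with DMSO and 142, 160 and 184 CPM with WD6305, a rise of 0.91 (log2, SE 0.18, edgeR adjusted p = 0.00631), and SNHG4 had 0.11 (SE 0.09, edgeR adjusted p = 0.438). SNHG20 shares 11154 of its 13187 bases with SEC14L1, which held 82 CPM in DMSO and had a log2 fold change of -0.10 (SE 0.06). Strand cannot separate reads from bases shared on the same strand, a limit for SNHG3, SNHG4 and SNHG20, and also for other hosts. Among these, SNHG32 and SNHG21 share 5112 and 4323 bases with an unnamed row each, and DANCR shares 11230 with LINC01618. The row in SNHG21 had 233 to 378 counts in a library, against 219 to 366 for SNHG21 itself. The row in SNHG32 had at most 179 counts and LINC01618 at most 20. GAS5 shares 801 bases with ZBTB37 on the other strand, whose log2 fold change was 0.03 (SE 0.12). Differences between a host and its neighbour were not tested.

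**Figure D4:**
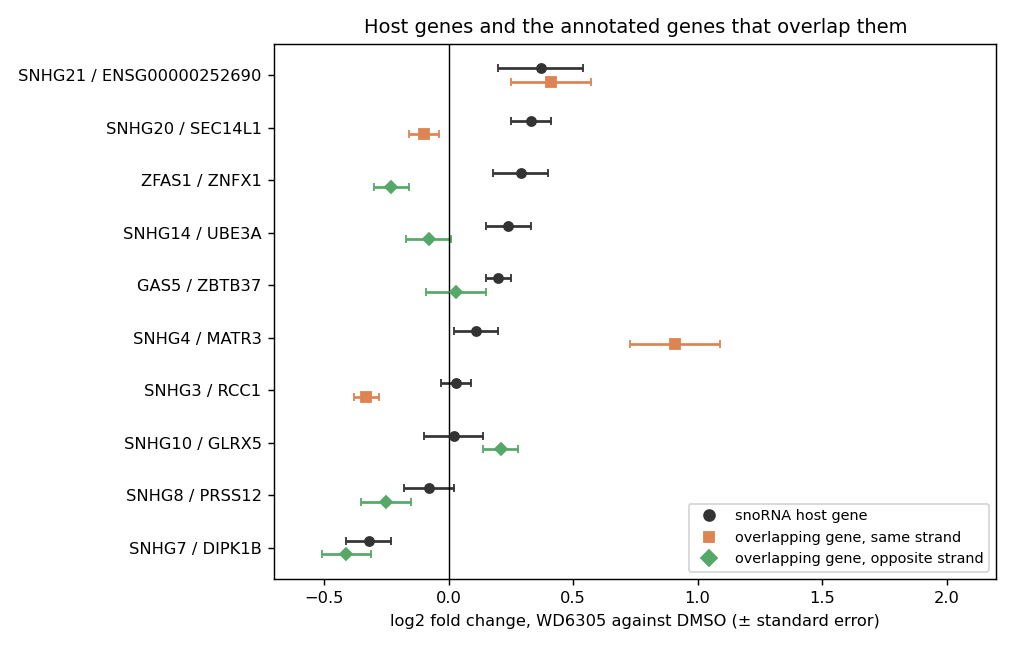
Log2 fold changes (bars, 1 standard error from edgeR) of 10 hosts and of 10 tested genes that share at least 100 bases with them and have a mean count of at least 100, on the same strand (squares) or the opposite strand (diamonds). The bars of SNHG4 and MATR3, ZFAS1 and ZNFX1, SNHG14 and UBE3A, SNHG20 and SEC14L1, and SNHG3 and RCC1 lie apart. Those of SNHG7 and DIPK1B, SNHG8 and PRSS12, and SNHG21 and its unnamed neighbour overlap. Those of GAS5 and ZBTB37, and of SNHG10 and GLRX5, meet or nearly meet.

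The snoRNAs themselves had few counts in these libraries of poly(A) RNA. The table holds 87 snoRNA rows inside 28 of the hosts. Of these rows, 82 had at most 10 counts in every library, and 4 passed the filter. None of the 4 was called by edgeR, DESeq2 or limma, and 0 had an unadjusted edgeR p under 0.05. SNORA73B in SNHG3 was counted 99, 41 and 87 times in the DMSO libraries and 57, 66 and 59 times in the WD6305 libraries (log2 fold change -0.26, SE 0.35, edgeR adjusted p = 0.651). SNORA71B in SNHG17 had 39, 19 and 27 against 25, 28 and 15 (-0.26, SE 0.49, edgeR adjusted p = 0.755), and its groups overlapped while those of its host did not. SNORD104 in SNHG25 had 23, 23 and 26 against 14, 22 and 18 counts (-0.37, SE 0.47, edgeR adjusted p = 0.634). SNORD48 in SNHG32 had 20, 20 and 23 against 10, 12 and 19 counts (-0.57, SE 0.54, edgeR adjusted p = 0.507).

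The sequences of 3 of these snoRNAs are given to show elements of the classes, from the GENCODE release 29 transcripts on GRCh38, 5′ to 3′. SNORA71B is not printed, as its transcript of 134 bases is shorter than its annotated span. That transcript ends in ACA with 0 bases after it. Capitals mark the box C match (TGATGA) and the box D match (CTGA) of the box C/D RNAs, and the ACA box of the box H/ACA RNA. The H box is not marked. Of 278 SNORD transcripts, 66.5% hold both matches within the first 20 and last 15 bases, and of 147 SNORA transcripts 76.2% hold ACA 3 bases before the end.
SNORD104, chr17:64146083-64146152, plus strand: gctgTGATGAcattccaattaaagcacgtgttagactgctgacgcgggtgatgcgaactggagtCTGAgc
SNORD48, chr6:31835263-31835326, plus strand: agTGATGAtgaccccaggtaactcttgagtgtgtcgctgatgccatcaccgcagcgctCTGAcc
SNORA73B, chr1:28508559-28508762, plus strand: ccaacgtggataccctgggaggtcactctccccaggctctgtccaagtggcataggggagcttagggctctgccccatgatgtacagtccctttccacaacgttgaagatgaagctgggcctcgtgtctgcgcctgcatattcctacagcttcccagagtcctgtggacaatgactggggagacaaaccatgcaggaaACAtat

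Because noncoding hosts are known for 5' TOP starts, the start sites of the members were read from RefSeq (GRCh38.p14), which gave a window for 27 of the 31. SNHG15, SNHG25, SNHG6 and SNHG9 had no window, so the called host SNHG6 could not be searched. The motif searched on the transcribed strand was a C at the first base followed by 4 bases that are each C or T. It was present in 7 of 27 windows (25.9%), in 4.07% of all 35116 windows and in 56.5% of 85 ribosomal protein gene windows. The 7 were SNHG12, ZFAS1, SNHG19, SNHG5, SNHG4, SNHG32 and SNHG18, and of the 6 that were tested none was called by edgeR, though 2 had an unadjusted p under 0.05 and DESeq2 called 1, ZFAS1 (adjusted p = 0.0369). Calls by edgeR were made for 29.6% of the tested members and 23.4% of all genes, and the 6 were not tested against either share. The RefSeq start lay within 5 bases of the deposited gene start for only 5 of 27, and 163 bases from it for GAS5, so the windows need not be the starts used in these cells. The windows below run from 10 bases before the start to 20 from it, with the first 5 transcribed bases in capitals. The first 6 carry the match and the last 5 belong to called hosts whose window does not. The windows of SNHG20 and SNHG26, also called and without the match, are not printed. Those of SNHG26 and SNHG7 start with 4 pyrimidines and so come close to the motif.
ZFAS1, chr20:49278632-49278661, plus strand: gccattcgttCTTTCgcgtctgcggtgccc
SNHG5, chr6:85678714-85678743, minus strand: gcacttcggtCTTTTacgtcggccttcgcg
SNHG32, chr6:31834906-31834935, plus strand: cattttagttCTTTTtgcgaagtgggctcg
SNHG12, chr1:28581854-28581883, minus strand: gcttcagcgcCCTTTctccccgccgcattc
SNHG19, chr16:2155339-2155368, minus strand: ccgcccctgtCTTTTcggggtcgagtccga
SNHG4, chr5:139274091-139274120, plus strand: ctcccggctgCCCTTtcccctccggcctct
SNHG17, chr20:38435309-38435338, minus strand: gtgtggcctcAGTCCttcgccgtccctcgc
SNHG16, chr17:76557754-76557783, plus strand: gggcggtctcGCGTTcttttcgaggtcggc
GAS5, chr1:173869026-173869055, minus strand: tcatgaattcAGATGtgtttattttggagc
SNHG7, chr9:136728165-136728194, minus strand: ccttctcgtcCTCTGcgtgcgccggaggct
SNHG29, chr17:16438977-16439006, plus strand: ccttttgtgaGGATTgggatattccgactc

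In the windows from 250 bases before to 50 after the start, the E-box CACGTG, which reads the same on both strands, was present in 7.41% of the 27 members (SNHG7 and SNHG30) and in 7.26% of all windows. CGGAAG on either strand, the core letters bound by ETS factors, was present in 22.2% of the members and 19.5% of all windows. Both shares are close to the background.

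The proteins that bind and act on snoRNAs were examined as companion lists. Of the 8 core snoRNP proteins 7 fell and 1 rose, with a median log2 fold change of -0.42. Over all genes 11.2% were lower and 12.2% higher, and no list was tested against these shares. NOP56, a scaffold of box C/D particles, went from 269 ± 4.94 to 200 ± 3.32 CPM (log2 fold change -0.42, SE 0.04, edgeR adjusted p = 0.000213), and DKC1, the pseudouridine synthase, from 215 ± 5.15 to 162 ± 5.77 CPM. FBL, the 2'-O-methyltransferase, and NHP2, of the H/ACA particle, each fell by 0.52 (SE 0.08). The one that rose, NOP10 (0.34, SE 0.11, edgeR adjusted p = 0.0497), was singled out after its values were seen, and its call was lost under 11 of the 18 alternatives. The 7 lower genes include proteins of both particle classes.

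Among 15 assembly and transport factors 5 fell, 1 rose and 9 were not called (median -0.05). For this list and the next, the shares over all genes were 11.2% lower and 12.2% higher. The AAA+ ATPases RUVBL2 and RUVBL1 of the R2TP complex fell by 0.48 and 0.43, their partner PIH1D1 by 0.45 and TCOF1, the treacle protein of the nucleolus, by 0.38 (edgeR adjusted p = 0.000199 to 0.000764). The fifth lower gene, NOLC1, a chaperone of snoRNPs in the nucleolus, had -0.36, and the gene that rose was PHAX, an adaptor for RNA export and snoRNA transport (log2 fold change 0.45), both named after their values were seen. Among 13 factors of intron release and 3' trimming 2 rose and none fell in edgeR with TMM scaling, where 3 were lower at an unadjusted p under 0.05. The number called lower was 2 in edgeR with library sizes alone, with upper-quartile scaling and among genes with a mean FPKM of at least 1, and 1 with counts divided by 4, without DMSO 3 and with a term for DMSO 3 and WD6305 1. DESeq2 and limma-voom called 1 lower, limma on log2(FPKM + 1) called 2 and on log2(FPKM + 0.1) called 1. The 2 that rose were RBM7 (0.40, edgeR adjusted p = 0.00194) and ZCCHC8 (0.33, edgeR adjusted p = 0.00844), both of the nuclear exosome targeting complex. TOE1, a deadenylase of small nuclear RNAs, had -0.22 (edgeR adjusted p = 0.0526) and passed in 10 alternatives, and XRN1, a cytoplasmic exonuclease, had 0.52 (edgeR adjusted p = 0.053, and 0.000272 without DMSO 3).

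For the decay pathway that acts on spliced hosts, 4 of 17 nonsense-mediated decay factors fell, 2 rose and 11 were not called (median -0.09). These counts and those of the reporters below stand beside 11.2% lower and 12.2% higher over all genes. For the factors, 2 of 17 higher is near that share. UPF1, the central helicase, fell by 0.24, DHX34 by 0.39, EIF4A3 of the exon junction complex by 0.27 and SMG5 by 0.15 (edgeR adjusted p = 0.00396, 0.00328, 0.00823 and 0.0278). UPF3B (0.42) and PNRC2 (0.19) were the 2 that rose, named after their values were seen. The number called higher was 0 without any one library other than DMSO 3, with no filter and in limma on FPKM, and 3 without DMSO 3. SMG5 lost its call without DMSO 2 (0.0966) or any one WD6305 library (0.0787 to 0.102). Without DMSO 2 or any one WD6305 library 3 of the 17 factors were called. Of 15 transcripts often used as reporters of the pathway 5 fell and none rose (median -0.21; 0 were higher at an unadjusted p under 0.05 or in DESeq2 or limma), with ATF4, a stress transcription factor, falling by 0.54 (edgeR adjusted p = 0.000152) and SRSF3, a splicing factor, by 0.22 (edgeR adjusted p = 0.0134). That count was 1 to 2 without DMSO 1 or any one WD6305 library, and 1 with the replicate number as a block. SRSF2, the fifth, named after its value was seen, fell by 0.17. NAT9 and TRA2A fell by 0.28 and 0.25 and lost their calls without DMSO 1 (edgeR adjusted p = 0.0692 and 0.114). All these values are totals per gene, which do not separate the transcript forms of a gene. Whether the activity of the decay pathway changed was not tested.

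Of 14 regulators of 5' TOP transcripts 5 fell, 1 rose and 8 were not called (median -0.16), beside 11.2% of all genes lower and 12.2% higher. RPTOR, a subunit of mTORC1, fell by 0.36, CNBP by 0.24, LARP1, which binds the TOP motif, by 0.22 and EIF4E, the cap-binding protein, by 0.25 (edgeR adjusted p = 0.00149 to 0.0114). MLST8, a partner of RPTOR, fell by 0.29 and TIA1, a stress granule protein, rose by 0.26, both named after their values were seen. None was called higher without any one library other than DMSO 3. Without WD6305 3 the number called lower was 3, and LARP1 was at an adjusted p of 0.0525 (edgeR).

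A list of protein-coding snoRNA hosts was set beside the noncoding ones. Of 52 tested, 23 fell, 3 rose and 26 were not called, with a median log2 fold change of -0.17. The shares over all genes were 11.2% lower and 12.2% higher. TCP1 and CCT6A, subunits of the TRiC chaperonin, fell by 0.52 (SE 0.05) and 0.53 (SE 0.05), TNPO2, an import receptor, fell by 0.52, and ATP6V0E1, a subunit of the vacuolar ATPase, rose by 0.60 (edgeR adjusted p = 0.000124 to 0.000204). The other two that rose, EIF4A2 (0.37) and TPT1 (0.23), were named after their values were seen. The number that fell was 14 without WD6305 3, 15 without WD6305 1 and 15 with a replicate block. NOP56, NOP58 and DKC1 are counted here and among the core proteins. RCC1, counted here as lower, contains all 4913 bases of the noncoding host SNHG3 on the same strand. Lists were chosen with earlier results of these data known, and a difference between the noncoding and the coding hosts was not tested.

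**Figure D5:**
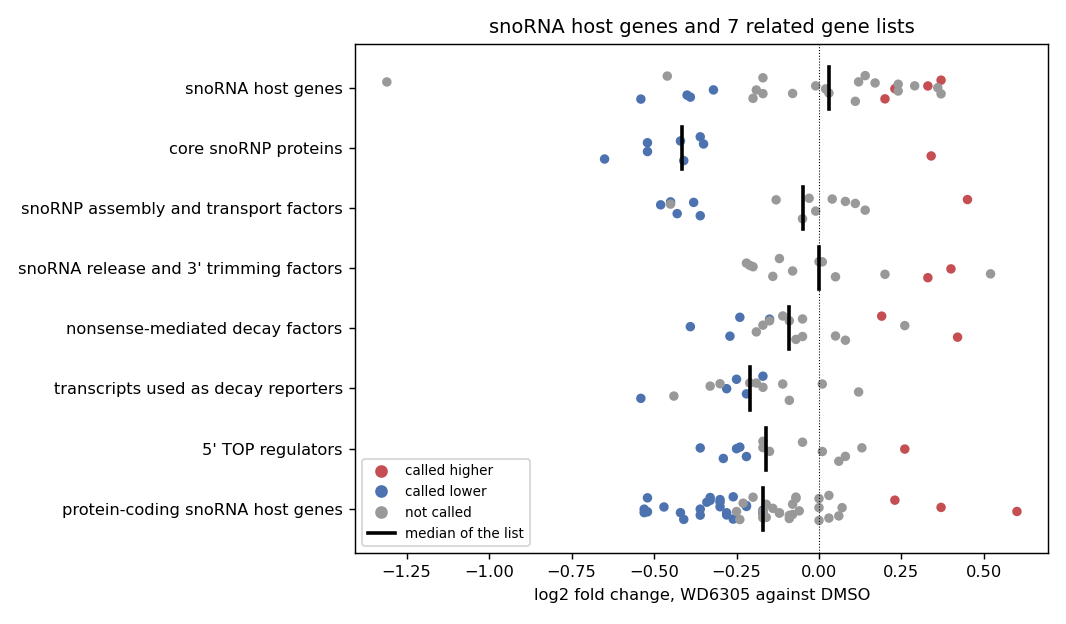
Log2 fold change of every tested gene in the noncoding host genes and in 7 related lists, coloured by the call, with a bar at the median of each list. The median of the core snoRNP proteins is -0.42 and that of the noncoding hosts is 0.03.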

How the data were processed

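RNA was extracted with TRIzol, and poly(A) RNA was made into dUTP libraries, per the labels' protocols. The authors used fastp, HISAT2, StringTie and edgeR on GRCh38, per the submitters' processing notes. Their versions, settings and use of strand: not given in the sources used here. A deposited table gives an estimated count and an FPKM value per gene and library. FPKM was normalised by the authors to length and depth, per the file headers. Deposited counts are whole but pile up at multiples of 4 (1071 to 1176 genes with a count of 4 in a library, 553 to 636 with 3). Errors were estimated from the spread between replicate libraries, in a model fitted to these counts. The pile-up therefore enters the filter and the fit.

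Genes were kept with filterByExpr, scaled by TMM and tested with the quasi-likelihood test of edgeR 4.0.16 in R 4.3.3, two-sided, with no block. P-values were adjusted over 18138 genes by the Benjamini-Hochberg method at 0.05. The fit was tested on simulated counts that had the same dispersion for every gene, no pile-up of counts and no libraries standing apart. That test therefore does not cover these features of the data. CPM is relative to the TMM-scaled library size. The rule for members uses names only, but it and the lists were chosen with earlier results of these data known. Per-library values are given for called members and those picked by name. SNHG32, SNHG1 and SNHG25, given in the text, and SNHG15, plotted beside the called hosts, were chosen after their values were seen. Up to 4 genes per list, those with the smallest adjusted p, were named, as were some tested neighbours that share at least 100 bases with a member. Any other is said to have been chosen after its value was seen. Alternatives were DESeq2 1.42.0, limma 3.58.1 on log2(FPKM + 1) and log2(FPKM + 0.1), limma-voom, other scalings and filters, counts divided by 4, a replicate block, single libraries left out, and DMSO 3 with WD6305 1 left out or given a term.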

Additional observations from a re-analysis of the deposited data

How the results depend on the processing

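Over the 18 alternatives SNHG17, SNHG16 and SNHG6 were called each time, SNHG20 and GAS5 in 14 of 18, SNHG7 in 12, SNHG29 in 9 and SNHG26 in 7 of the 17 that tested it. No called member reversed. Leaving out 1 library gave 3 to 8 members called, 1 to 5 higher and 2 to 4 lower, and 2756 to 4640 of all genes, 1446 to 2563 higher and 1310 to 2077 lower. The fewest members, 3, were called without DMSO 2 or WD6305 2, and 5 without WD6305 1 or WD6305 3. With no filter on low counts 5 members were called, 2 of them lower, and the 4 libraries without DMSO 3 and WD6305 1 gave 2 lower. DESeq2 called 11 members. Signs changed in 4 members close to 0 or on few counts, and the cause was not tested. SNHG3 was -0.01 with upper-quartile factors, -0.00032 to 0.07 without 1 library (lowest without DMSO 3) and -0.01 in the 4 libraries. SNHG9 was -1.12 to 0.15 without 1 library (0.02, 0.14 and 0.15 without DMSO 2, WD6305 1 or WD6305 2) and 0.05 in the 4 libraries. SNHG1 was -0.04 to 0.01 without 1 library, highest without DMSO 1 or WD6305 2. SNHG10 was -0.0033 with library sizes alone, -0.02 with upper-quartile factors, -0.04 to 0.11 without 1 library (below 0 without DMSO 2, DMSO 3 or WD6305 1) and -0.08 in the 4 libraries (log2 fold changes throughout).

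Between libraries with the same number, deviations from the treatment mean had correlations of -0.181, 0.078 and -0.146. Deviations from a mean of 3 libraries constrain each other, so these values cannot show whether such libraries shared a culture or batch. With the replicate block 6 members and 3204 of all genes were called, SNHG29 and SNHG26 no longer among the members. Precision is limited by 3 libraries per group, and the counts of SNHG25, SNHG9 and the snoRNA rows are too low to show small differences.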

Other observations

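A count of exactly 1 in all 6 libraries was frequent among snoRNA rows. It occurred in 39 of the 87 rows inside the hosts (44.8%), in 28 of 52 when those of SNHG14 were left out (53.8%), and in 115 of all 340 snoRNA rows of the table (33.8%). Among the 31513 other rows it occurred in 239 (0.758%). Other snoRNA rows with a 1 in some libraries do vary.

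No snoRNA row of the table lies inside GAS5, although RefSeq places 11 snoRNAs there, so none of them has a value here. In SNHG14, which has the most snoRNAs of any host, 35 rows are listed, none had more than 10 counts in any library, and none was tested.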
